A study of Mus musculus with 3 samples.

Results

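Mural cells are the cells of the blood vessel wall, pericytes on capillaries and smooth muscle cells around arterioles and veins. They were picked from single-cell RNA profiles of mouse back skin by their transcripts: at least 1 UMI (unique molecular identifier, 1 counted RNA molecule) of Rgs5 and at least 2 of the 5 genes Acta2, Myh11, Des, Notch3 and Pdgfrb. Cells were kept with at least 500 genes and under 15% mitochondrial UMIs. Cells with keratin (Krt5 plus Krt14 at 0.3% of UMIs or more), with Ptprc (immune cells), with Cdh5 (endothelium) or with at least 3 of 7 hair papilla and sheath genes were left out. The rule found 71 cells among 24884 kept cells. There were 15 in the 2-week Piezo1 knockout, 35 in the 3-week knockout and 21 in the control.

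All mice were C57BL/6 and carried the K5-Cre-er transgene, a recombinase under an epithelial keratin promoter that mural cells are not known to use. Tamoxifen treatment ran over postnatal days 48 to 52. The 2-week knockout (K5-Cre-er/Piezo1fl/fl/Tdfl/+) was taken at postnatal day 62, the 3-week knockout (K5-Cre-er/Piezo1fl/fl/Tdfl/fl) at day 71, and the control (K5-Cre-er/Piezo1fl/+/Tdfl/+) at day 62. The control thus also carried the Cre, a Td allele and 1 floxed Piezo1 allele. The 3-week library differed from it in age and in 1 more Td allele, and it has no control of its own age here. Each group was 1 library, so the differences below have no replicate check, intervals cover counting error of UMIs only, and no test between groups was possible. Both knockouts were set against the same control library.

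Mural cells surround the endothelial tube. Endothelial PDGF-B recruits and holds them through the receptor Pdgfrb, endothelial Notch ligands act on Notch3, and nitric oxide from the endothelium relaxes them through soluble guanylate cyclase. Pericytes are known for potassium channel genes such as Kcnj8 and Abcc9. Smooth muscle cells carry the contractile apparatus of Acta2, Myh11, Tagln and Cnn1, much of it driven by serum response factor (Srf) at a DNA element called the CArG box.

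Mural cells made up 0.152% of kept cells in the 2-week knockout (exact Clopper-Pearson 95% interval 0.0851 to 0.251), 0.350% in the 3-week knockout (0.244 to 0.487) and 0.418% in the control (0.259 to 0.638). Set against the endothelial-like cells of the same library (Cdh5-positive cells, 81, 89 and 64 in number), there were 18.5 mural cells per 100 in the 2-week knockout (9.91 to 32.4), 39.3 in the 3-week knockout (25.8 to 58.8) and 32.8 in the control (19.0 to 54.4). Of all kept cells, the 2-week knockout interval lay wholly below that of the control, while the 3-week knockout interval overlapped both. Kept cells had medians of 7594, 8952 and 10116.5 UMIs in the 2-week knockout, the 3-week knockout and the control. With every cell thinned to 2000 UMIs, the 2-week knockout (0.0741 to 0.238) and control (0.219 to 0.584) intervals overlapped. They also overlapped as shares of cells low in keratin and without Ptprc (0.373 to 1.10 and 0.681 to 1.67). Per endothelial-like cell the intervals of all 3 libraries overlap. These are counting intervals of single libraries, and whether mice differ in mural cell share was not tested. The dissociation by collagenase I and then trypsin can also set such shares.

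The mural cells held 85417, 167175 and 131828 UMIs in the 2-week knockout, the 3-week knockout and the control, with medians of 4403, 4253 and 6385 UMIs per cell. No barcode was shared between mural cells of different libraries, and a doublet caller (Scrublet) marked none of the 71. 3 cells nevertheless held at least 50 UMIs of another cell type's markers. A 2-week knockout cell of 27089 UMIs carried 1127 UMIs of keratinocyte genes and supplied 31.7% of all mural UMIs of that library. Another 2-week knockout cell carried 60 UMIs of Schwann cell genes, and a 3-week knockout cell carried 1098 UMIs of fibroblast genes. These are called mixed cells, and results are given with and without them.

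The label fitted most, not all, of the listed pericyte and contractile genes that the rule did not use. Fibroblast-like cells were picked by Col1a1, Dcn and Pdgfra. Of the 15 pericyte genes, all but Steap4, P2ry14 and Ndufa4l2 stood above endothelial-like and fibroblast-like cells in every library. Steap4 was below fibroblast-like cells in all 3 libraries, and P2ry14 was above each pool in only 1 of 3. Of the 22 contractile genes, all but Casq2, Srf and Csrp1 stood above both in every library. The potassium channel subunit Abcc9 stood at 246, 77.8 and 243 CPM (summed UMIs of the cells, scaled to a total of 1000000) in mural cells of the 2-week knockout, the 3-week knockout and the control, and no endothelial-like or fibroblast-like pool exceeded 17.6 CPM. Lmod1, an actin nucleator of smooth muscle, stood at 234, 491 and 410 CPM, against at most 4.4 CPM in those pools. The melanocyte and adipocyte lists were at 0 in all 3 libraries, the skeletal muscle list reached at most 23.4 CPM and the lymphatic list at most 2 UMIs. The endothelial list summed to 70.2, 71.8 and 53.1 CPM and the immune list to 0, 41.9 and 53.1 CPM. The arrector pili (hair muscle) list summed to 82.0, 191 and 303 CPM and the dermal sheath list to 70.2, 156 and 258 CPM. Both lists hold Itga8. Without the mixed cells the fibroblast markers summed to 1118, 601 and 979 CPM. Whether some of the cells belong to hair muscle or dermal sheath was not tested. With the mixed cells left out, the 9 keratinocyte markers summed to 391, 1487 and 470 CPM, and their part in the results was not tested.

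Near the threshold, 5 mural cells had Rgs5 at 1 UMI and 6 had only 2 of the 5 companion genes, while 31 had all 5. Just outside, 215 cells failed only for Rgs5 at 0 (24, 113 and 78 in the 2-week knockout, the 3-week knockout and the control), 16 failed only for Cdh5 and 14 only for too few companion genes. The Rgs5-negative cells held fibroblast collagen and contractile transcripts. Col1a1 stood at 6559, 5207 and 16033 CPM in them, against 164, 1466 and 167 CPM in the mural cells, where the 3-week value without its mixed cell was 71.1 CPM. The contractile list summed to 3036, 5621 and 15900 CPM in the Rgs5-negative cells, against 11988, 19650 and 18911 CPM in mural and 1182, 1016 and 1336 CPM in fibroblast-like cells.

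The mural cells spread along a contractile axis. The 22 contractile genes fixed as a list (Tagln, Myl9, Cnn1 and others, without the genes of the rule) took a median of 0.621% of a cell's UMIs in the 2-week knockout (range 0.0886 to 4.54), 1.60% in the 3-week knockout (0 to 4.15) and 1.29% in the control (0.228 to 4.29). Cells low in contractile genes tended to be higher in the 15 pericyte genes, with a Spearman rho across cells of -0.40, -0.35 and -0.56. Without the mixed cells the values were -0.74 over 13 cells, -0.43 over 34 cells and -0.56 over 21 cells. Cells of 1 library share its preparation, and both shares have the same UMI total in the denominator. The contractile share also went with depth in the 3-week knockout and the control (rho 0.45 and 0.56) and not in the 2-week knockout (-0.17). Without the mixed cells these depth values were 0.57 in the 3-week knockout and 0.19 in the 2-week knockout. With the mitochondrial share of UMIs, rho was 0.56, 0.33 and 0.28 in the 2-week knockout, the 3-week knockout and the control. The part of depth and mitochondrial share in the axis was not tested. Above the common median of 1.39% lay 6 of 15, 19 of 35 and 10 of 21 cells, so both ends of the axis were present in every library.

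**Figure D1:**
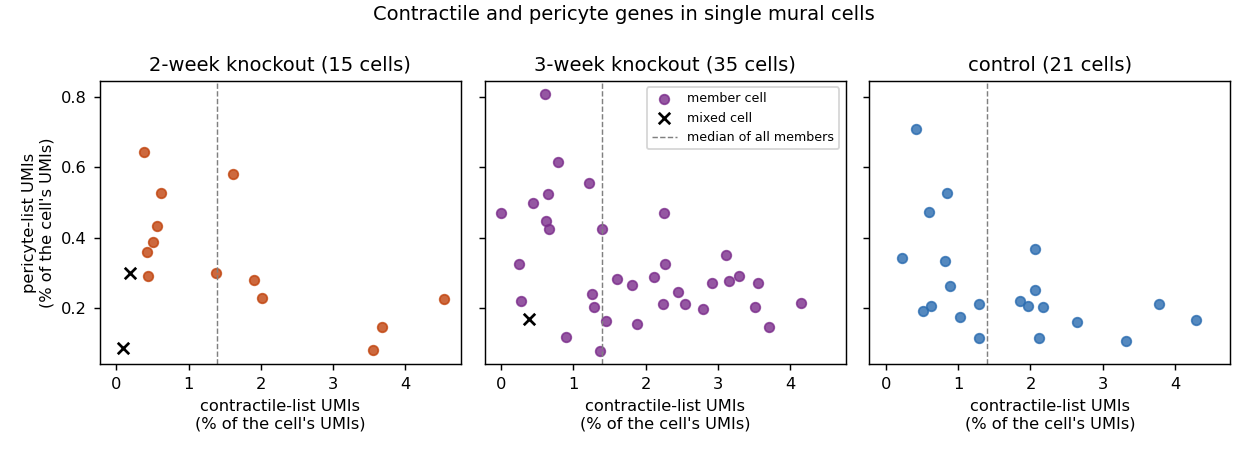
Share of each mural cell's UMIs from the 22 contractile genes (horizontal axis, %) against that from the 15 pericyte genes (vertical axis, %), 1 point per cell, in the 2-week knockout, the 3-week knockout and the control. Crosses are the 3 mixed cells and the dashed line is the median contractile share of all 71 cells (1.39%). The cells with over 0.5% pericyte UMIs lie mostly left of the line in every panel.

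Each library's cells were then divided at its own median contractile share into contractile-high and contractile-low cells, 7 and 8 in the 2-week knockout, 17 and 18 in the 3-week knockout, and 10 and 11 in the control. Of 1041 genes with at least 50 UMIs, 109 stood at least 1.5-fold higher in the contractile-high cells of every library (10.5%) and 74 stood lower (7.11%). The division uses the cells' own transcripts, so these values describe the axis and were not tested. Leaving out the mixed cells gave 96 and 75 of 899 genes, of which 83 and 54 were among those counted with all cells. With every cell thinned to 2000 UMIs, 20 and 24 of 282 genes lay past the fold, of which 15 on each side were among those counted unthinned.

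Genes higher in the contractile-high cells included muscle and matrix genes outside the list. Igfbp4, which binds insulin-like growth factors, stood at 1324 against 36.2 CPM in the contractile-high and contractile-low cells of the 2-week knockout, at 867 against 130 CPM in the 3-week knockout and at 749 against 0 CPM in the control. Synm, an intermediate filament gene of muscle, stood at 430 against 0, 356 against 77.7 and 307 against 0 CPM. Mustn1, a small nuclear protein of muscle and skeletal tissue, stood at 1589 against 0, 2012 against 376 and 1136 against 281 CPM. Csrp2, a smooth muscle LIM protein, Myom1 of the muscle M-band, and the matrix genes Thbs1, Aspn and Fn1 followed in the same direction in each library. So did Itga8 of the arrector pili and dermal sheath lists, with 6 against 0, 22 against 3 and 28 against 6 UMIs.

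Genes lower in the contractile-high cells included signalling and immune genes. Rgs16, a brake on G protein signalling, had 0, 0 and 7 UMIs in the contractile-high cells of the 2-week knockout, the 3-week knockout and the control, against 72, 96 and 105 UMIs in the contractile-low cells. Cxcl10, an interferon-induced chemokine, stood at 0 against 1195, 167 against 829 and 0 against 3034 CPM. Ccl2, a monocyte attractant, stood at 66.2 against 1286, 11.1 against 505 and 0 against 1596 CPM. The interferon genes Ifitm1, Iigp1 and Ifi47, and also Cyp26b1, which degrades retinoic acid, lay on the same side, as did Col3a1 and Col1a1. Of 9 ranked fibrillar and elastic matrix genes 5 were lower in the contractile-high cells in every library and none higher, and of 8 ranked cytokine genes 4 were lower and none higher. Among 8 ranked pericyte genes 3 were lower (Abcc9, Cox4i2 and Higd1b) and 1 was higher (Mcam, an adhesion molecule). The mixed cell of the 3-week knockout, with its fibroblast transcripts, fell among the contractile-low cells. There Col1a1 had 245 UMIs with it and 11 without it, against 0 UMIs in the contractile-high cells. Col3a1 had 163 UMIs with it and 47 without it, against 3 UMIs in the contractile-high cells. Without the mixed cells Col1a1 was under the ranking minimum, 4 of 5 ranked matrix genes and 5 of 8 cytokine genes were lower, and of 6 ranked pericyte genes 1 was lower (Abcc9) and 1 higher.

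**Figure D2:**
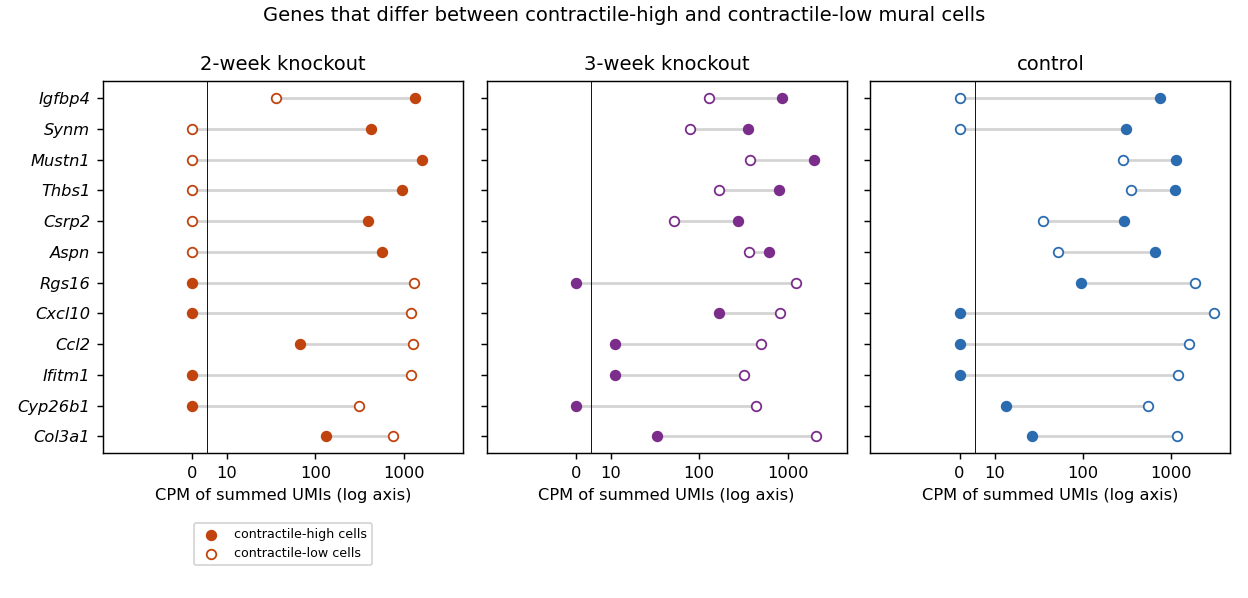
CPM of summed UMIs on a log axis (values of 0 drawn left of the vertical line) for 12 genes in the contractile-high (filled) and contractile-low (open) mural cells of each library. The upper 6 genes are higher in the contractile-high cells and the lower 6 in the contractile-low cells, in every library.

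Promoters of the contractile list were searched for the CArG box (CC, then 6 bases of A or T, then GG), since these genes define the axis. This motif reads the same on both strands. In the RefSeq promoter windows (250 bases before to 50 after the start, GRCm38.p6), 1.63% of 32851 windows held a match. Of the 22 genes of the contractile list, 19 had windows, 21 in number. The motif lay in 3 windows, those of Myl9 (myosin regulatory light chain), Rergl (a Ras-like gene of vascular smooth muscle) and Srf itself. Of the pericyte list, 10 genes had 16 windows, and none held the motif. Genes without a window, Tagln among them, were not searched. Acta2 and Myh11 belong to the rule and not to the list, so no result is given for them. A match is a description of the letters and not a shown binding site. The stretches before the start sites are shown with the motif in capitals, Myl9 from chr2:156775273-156775342 (plus strand), Rergl from chr6:139501919-139501988 (minus strand) and Srf from chr17:46556185-46556274 (minus strand).
Myl9: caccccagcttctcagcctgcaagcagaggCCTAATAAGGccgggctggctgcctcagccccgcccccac
Rergl: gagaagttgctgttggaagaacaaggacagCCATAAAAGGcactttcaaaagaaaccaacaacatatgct
Srf: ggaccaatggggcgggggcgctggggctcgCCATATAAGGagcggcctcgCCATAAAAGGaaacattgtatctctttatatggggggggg
The motif began 161 bases before the start in Myl9, 49 in Rergl, and 82 and 62 in Srf. Myl9 stood at 3344 against 217 CPM in the contractile-high and contractile-low cells of the 2-week knockout, at 2701 against 803 CPM in the 3-week knockout and at 2286 against 509 CPM in the control. Rergl, under the ranking minimum, had 3, 21 and 6 UMIs in the contractile-high cells of the 2-week knockout, the 3-week knockout and the control, against 0, 2 and 0 UMIs in the contractile-low cells. Myl9 and Rergl are among the 22 genes whose share divided the cells, so their order is not a separate result. Srf had 1, 3 and 0 UMIs in all mural cells, too few to place on the axis.

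The targeted gene Piezo1, a mechanically gated cation channel, had 2, 4 and 2 UMIs in mural cells of the 2-week knockout, the 3-week knockout and the control (23.4, 23.9 and 15.2 CPM), against 87.5, 62.5 and 96.6 CPM in endothelial-like and 49.9, 42.9 and 67.7 CPM in fibroblast-like cells. Which exons were floxed is not stated in the labels, so a 3' tag does not check the deletion. Nor is deletion expected in cells that do not use the K5 promoter. Its ratio in mural cells was 1.54 in the 2-week knockout over the control (95% counting interval 0.112 to 21.3) and 1.58 in the 3-week knockout (0.226 to 17.4), which sets no direction.

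Among the ligands, Pdgfb had 3, 2 and 1 UMIs in mural cells and stood at 65.6, 117 and 77.3 CPM in endothelial-like cells. The Notch ligand Dll4, the nitric oxide synthase Nos3 and the angiopoietin receptor Tek were at 0 in the mural cells of all 3 libraries, where a count of 0 allows up to 35.1, 17.9 and 22.8 CPM. The corresponding endothelial-like levels of Dll4 were 86.1, 82.0 and 85.3 CPM. Jag1, the Notch ligand that mural cells share with endothelium, stood at 93.7, 239 and 114 CPM in mural cells, against 46.7, 44.3 and 57.9 CPM in endothelial-like cells.

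Among the receptors, Pdgfrb and Notch3 belong to the rule, and their excess in mural cells is not a finding. Gucy1a1, a subunit of the nitric oxide receptor guanylate cyclase, stood at 421, 808 and 539 CPM in mural cells, against at most 35.0 CPM in endothelial-like and at most 2.6 CPM in fibroblast-like cells. Ednra, the contractile endothelin receptor, stood at 187, 114 and 152 CPM, against 17.5, 16.9 and 0 CPM in endothelial-like cells. The vasopressin receptor Avpr1a stood at 129, 156 and 668 CPM, against at most 14.5 CPM in either comparison pool. Nrarp, a feedback target of Notch, stood at 187, 263 and 288 CPM, against 30.6, 39.0 and 25.8 CPM in endothelial-like cells. Angpt1, the mural ligand of Tek, stood at 46.8, 53.8 and 30.3 CPM, against 0, 5.2 and 1.6 CPM. Over the 133 genes set against each pool, 74 were higher and 27 lower in mural than in endothelial-like cells in all 3 libraries, and 73 were higher and 24 lower than in fibroblast-like cells. The 133 genes came from chosen lists and no share over all genes was taken, so these counts describe the lists. Fibroblast-like cells were picked by Col1a1 and Pdgfra, so the lower mural levels of these 2 genes are not a finding. In the exact two-sided paired permutation test over 3 libraries the smallest possible p is 0.25. The genes with the same direction in all 3 libraries reached it, and no gene can go below it.

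**Figure D3:**
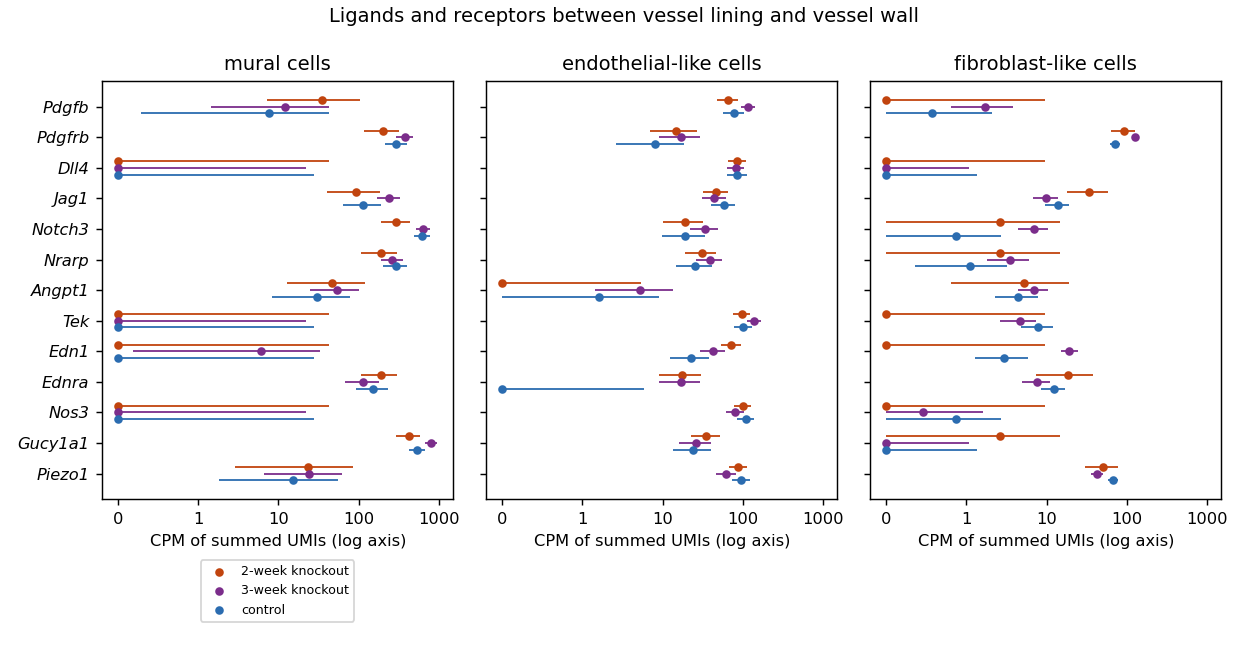
CPM of summed UMIs on a log axis, with 95% Poisson intervals (counting error only; values of 0 drawn at the left edge), for 13 ligands, receptors and targets in mural, endothelial-like and fibroblast-like cells, with the 2-week knockout, the 3-week knockout and the control drawn from top to bottom for each gene. Dll4, Tek and Nos3 are at 0 in mural cells and at 80.7 CPM or above in endothelial-like cells, and Gucy1a1, Ednra and Nrarp show the opposite order.

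The 3-week knockout was set against the control over 879 genes with at least 50 UMIs. Past 2-fold lay 49 genes on the higher side (5.57%) and 63 on the lower side (7.17%), with a median log2 ratio of -0.04. Without the mixed cell the counts were 41 (4.85%) and 56 (6.63%) of 845.

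Immediate early genes, transcribed within minutes of a stimulus, stood higher in the 3-week knockout. At 1.5-fold, 10 of 19 ranked genes of the list were higher and none lower, beside 16.7% of all genes higher. Fos, a subunit of the AP-1 factor, stood at 8602 CPM in the 3-week knockout and 1798 CPM in the control, a ratio of 4.78 (4.17 to 5.51). Fos is given only as a member of the list and did not meet the naming rule. Jun, its partner, stood at 4319 and 1676 CPM (ratio 2.58, 2.21 to 3.01), and Egr1 at 5186 and 1972 CPM (2.63, 2.29 to 3.03). Per cell, the list took a median of 3.88% of UMIs in the 3-week knockout (0.132 to 10.1) and 2.03% in the control (1.02 to 5.42), and the ranges overlap. In the 3-week knockout, 1 cell held 1040 of the 7202 UMIs of the list. The summed list stood 1.82-fold higher in mural cells, 1.77-fold higher in fibroblast-like, 1.29-fold higher in keratinocytes and 1.14-fold higher in endothelial-like cells of the same libraries.

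Cytokine and chemokine genes stood lower in the 3-week knockout. Of 7 ranked genes 5 were at least 1.5-fold lower and none higher, beside 16.5% of all genes lower. Il6, an inflammatory cytokine, stood at 1119 CPM in the 3-week knockout and 4180 CPM in the control, a ratio of 0.27 (0.23 to 0.32). Its count per cell ran from 0 to 40 with a median of 1 in the 3-week knockout and from 0 to 196 with a median of 14 in the control. Cxcl1, a neutrophil attractant, stood at 790 and 2609 CPM (ratio 0.30, 0.25 to 0.37). Cxcl2 had 3 and 106 UMIs (ratio 0.022, 0.00453 to 0.0670), with the control UMIs in 6 of 21 cells and 77.4% of them in 1 cell. Il6, Cxcl1 and Cxcl2 are given only as list members and did not meet the naming rule. The NF-kB subunit Nfkb1 (213 and 539 CPM without the mixed cell) and the oncostatin M receptor Osmr (188 and 455 CPM) were also over 2-fold lower. The summed list stood at 0.43 of the control in mural cells, 0.74 in fibroblast-like, 0.85 in endothelial-like and 1.28 in keratinocytes. In the control, 1 cell held 474 of the 1576 UMIs of the list, and that cell also had the 196 UMIs of Il6. Per cell, the list took a median of 0.463% of UMIs in the 3-week knockout (0 to 2.86) and 0.740% in the control (0.0766 to 5.30). These ranges overlap.

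**Figure D4:**
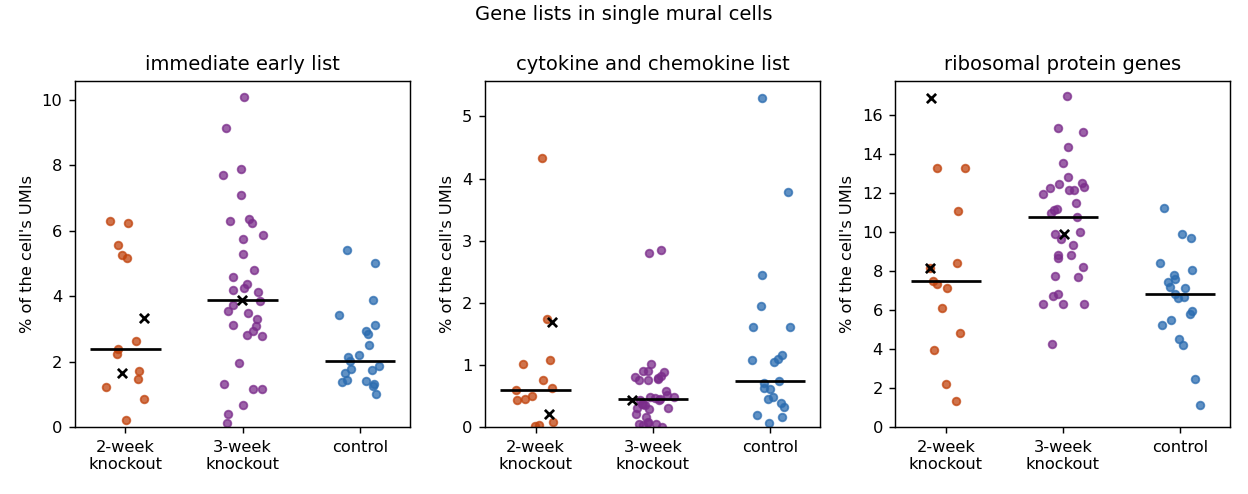
Share of each mural cell's UMIs (vertical axes, %) from the immediate early list, the cytokine and chemokine list and the ribosomal protein genes, 1 point per cell, with the median as a bar and mixed cells as crosses, in the 2-week knockout, the 3-week knockout and the control. The 3-week knockout has the highest median of the immediate early list (3.88%) and of the ribosomal protein genes (10.8%), and the cells overlap in every panel.

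Of the genes that met the naming rule, the one furthest below the control was Procr, the endothelial protein C receptor. It had 19 UMIs in 9 of 35 cells of the 3-week knockout (114 CPM) and 179 UMIs in 17 of 21 control cells (1358 CPM), a ratio of 0.084 (0.0492 to 0.135). The corresponding ratio was 0.32 in endothelial-like cells and 1.03 in fibroblast-like cells. Adamts9, a matrix protease, stood at 83.7 and 523 CPM in the 3-week knockout and the control, and Neat1, a long noncoding RNA of the nucleus, at 1519 and 4733 CPM. Wdr89 stood at 53.8 and 440 CPM, a ratio of 0.12 that the other 4 cell pools shared (0.12 to 0.15). Lamc1, a laminin chain of the basement membrane, stood at 95.7 and 258 CPM (0.37, 0.19 to 0.69). Sparc, which binds basement membrane collagen, stood at 1675 and 2792 CPM (0.60, 0.51 to 0.70). Of 7 ranked basement membrane genes 4 were at least 1.5-fold lower and none higher, beside 16.5% of all genes lower. Without the mixed cell 2 of 6 were lower, beside 16.3% of all genes.

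Of the genes named on the higher side in the 3-week knockout, Nexn, an actin-binding protein of the sarcomere, stood at 365 and 129 CPM in the 3-week knockout and the control (ratio 2.83, 1.63 to 5.17). Pln, the phospholamban that restrains the calcium pump, is given only as a member of the contractile list and did not meet the naming rule. It stood at 305 and 121 CPM (2.51, 1.41 to 4.72). Lmcd1, a LIM protein, stood at 239 and 91.0 CPM (2.63, 1.35 to 5.50), and Ptp4a3, a phosphatase, at 784 and 296 CPM (2.65, 1.84 to 3.89). Mif, a secreted cytokine, stood at 293 and 98.6 CPM (2.97, 1.59 to 5.97). Of the contractile list, 3 of 15 ranked genes lay past 1.5-fold on the higher side, none on the lower and 12 between, beside 16.7% of all genes higher. Of 12 ranked actin and myosin genes 2 were higher and 1 was lower. Tagln stood at 3751 and 3907 CPM, Mylk at 1950 and 1942 CPM. Of 3 ranked Notch genes Hes1 (479 and 235 CPM) and Jag1 (239 and 114 CPM) were over 1.5-fold higher. Hes1 was also higher in endothelial-like (2.86-fold) and fibroblast-like cells (3.34-fold). The median log2 ratio of the Notch list turned to -0.49 when Myh11-positive and Myh11-negative cells weighed the same, a setting that rests on 4 and 1 negative cells.

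The other genes that met the naming rule in the 3-week knockout with all cells were, on the higher side, Klf13, Pnisr, Aopep, Wtip, Rsrc2 and Atf3, between 2.27-fold (Rsrc2) and 2.80-fold (Klf13). On the lower side were Sema4c, Atxn7, Smarca5, Phlda1 and Sod2, with ratios from 0.296 (Sema4c) to 0.36 (Sod2). Klf13 is a zinc finger factor, Atf3 a stress-induced partner of AP-1, Smarca5 a chromatin remodeller and Sod2 the mitochondrial superoxide dismutase. Smarca5 stood at 233 CPM in the 3-week knockout and 721 CPM in the control, with ratios of 0.75 in endothelial-like and 0.78 in fibroblast-like cells.

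Among pericyte genes in the 3-week knockout, 3 of 5 ranked members (Rgs4, Ndufa4l2 and Cspg4) lay past 1.5-fold on the higher side and none on the lower, beside 16.7% of all genes higher. Rgs4, a brake on G protein signalling, stood at 544 and 319 CPM in the 3-week knockout and the control. Abcc9 was under the ranking minimum, with 13 and 32 UMIs (0.32, 0.15 to 0.63). The fibroblast markers, 4 of 4 ranked higher with all cells, were 0 of 2 higher and 2 of 2 lower once the mixed cell was left out. Ribosomal protein genes were at least 1.5-fold higher for 39 of 80 with all cells, beside the same 16.7%, and for 41 of 80 without the mixed cell, beside 16.2% of all genes. Their sum stood 1.54-fold above the control in mural cells, 1.42-fold in endothelial-like, 1.44-fold in fibroblast-like and 1.23-fold in keratinocytes.

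The 2-week knockout, the pair of equal age, was set against the control over 645 genes. Past 2-fold lay 51 genes on the higher side (7.91%) and 65 on the lower side (10.1%). Leaving out the 2 mixed cells moved these to 16 (2.92%) and 28 (5.11%) of 548 genes, so the values that follow leave them out and rest on 13 cells. With all 15 cells, none of the 38 nameable genes past 2-fold on the higher side met the naming rule, because 1 cell held over 20% of the UMIs of each.

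Crispld2, a secreted protein of mesenchyme, stood at 969 CPM in 6 of the 2-week knockout cells and 3118 CPM in 17 control cells, a ratio of 0.31 (0.23 to 0.42). Neat1 stood at 1696 and 4733 CPM (0.36, 0.28 to 0.45), and Procr at 578 and 1358 CPM with its 31 UMIs in 3 cells (0.43, 0.28 to 0.63). Vcl (vinculin, which links actin to adhesions) had 6 and 46 UMIs (0.32, 0.11 to 0.75), and Csrp1, a LIM protein of smooth muscle, had 9 and 61 UMIs (0.36, 0.16 to 0.73). Fabp4, a fatty acid carrier, stood at 335 and 812 CPM (0.41, 0.24 to 0.68). The metallothionein Mt2 stood at 783 and 1737 CPM (0.45, 0.32 to 0.63), with ratios of 1.65 in endothelial-like and 1.01 in fibroblast-like cells. Ppp2ca, Ythdc1, Filip1l, Nsd3 and Smarca5 also met the rule on the lower side, with ratios from 0.38 (Ppp2ca) to 0.47 (Smarca5). On the higher side 4 genes met the rule, Srsf2 (a splicing factor), Nfat5 (the osmotic stress factor), Limd1 and Serbp1, between 2.12- and 2.46-fold, each with 28 to 31 UMIs in the 2-week knockout.

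The gene lists of the 2-week knockout are given without the mixed cells. Of 13 ranked contractile genes 2 were at least 1.5-fold lower and none higher. With all cells 8 of 13 were lower, beside 26% of all genes lower and 18.6% higher at 1.5-fold. The contractile list summed to 18465 CPM in the 2-week knockout without the mixed cells (11988 CPM with all cells) and 18911 CPM in the control. Beside 15.3% of all genes lower at 1.5-fold, 3 of 7 cytokine genes were lower and none higher, with a median log2 ratio of -0.50. Of 3 ranked glucocorticoid and metallothionein genes 2 were lower and none higher, with a median of -0.77. With all cells and Myh11-positive and Myh11-negative cells weighing the same, the median log2 ratio of the cytokine list was 0.18 (2 and 1 negative cells). Il6 stood at 2310 and 4180 CPM, and the vasopressin receptor Avpr1a at 168 and 668 CPM. Avpr1a is given only as a list member and did not meet the naming rule. Of Il6, 1 control cell had 196 UMIs, and the control median was 14 UMIs. The immediate early list had 4 of 18 genes higher and 1 lower, beside 10.8% of all genes higher. Fos was the furthest above, at 4621 and 1798 CPM, and did not meet the naming rule. The summed immediate early list stood at 1.15 of the control in mural cells and 0.94 in endothelial-like cells. The corresponding values were 2.09 in fibroblast-like cells and 1.54 in keratinocytes. Of 76 ribosomal protein genes 4 were higher and 5 lower, against 44 of 80 higher with the mixed cells in.

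**Figure D5:**
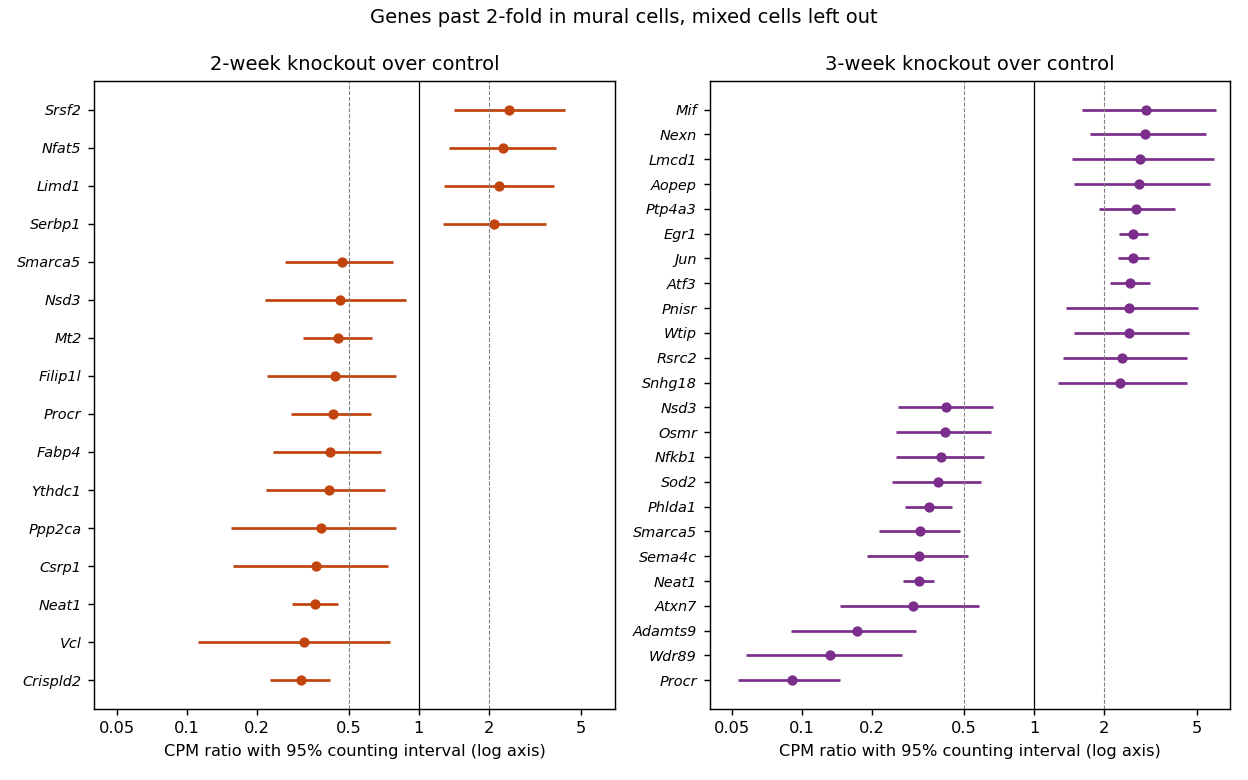
CPM ratio of the 2-week knockout (left) and the 3-week knockout (right) over the shared control in mural cells without the mixed cells, with exact 95% counting intervals, on a log axis, for the genes past 2-fold (dashed lines) that met the naming rule. Procr lies furthest below the control in the 3-week knockout (0.0905) and Crispld2 in the 2-week knockout (0.31).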

How the data were processed

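Back skin was dissociated with collagenase I and trypsin and profiled by droplet single-cell RNA-seq (1 library per group). The authors deposited raw UMI counts per gene and barcode, made with Cell Ranger 6.1.2 on mm10, per the submitters' processing notes and the file headers. From these, 11144, 11186 and 5621 barcodes (2-week knockout, 3-week knockout, control) were filtered to 9869, 9993 and 5022 cells. The authors' doublet treatment is not given in the sources used here, and Scrublet (in scanpy 1.11.5) was run per library. Counts were summed over mural cells, scaled to CPM and compared as ratios with exact conditional 95% intervals; with 1 library per group there was no test. Genes were ranked with at least 50 UMIs over both libraries. Named genes were the 12 furthest on each side past 2-fold, found in at least 10% of cells, with no cell holding over 20% of the UMIs and at least 1 of 5 parts of the keratinocyte level. Rule genes, ribosomal, mitochondrial, haemoglobin and sex-linked genes were not named. The ratios and intervals were tested on simulated Poisson counts. These had no added spread between cells, so the intervals were not tested under such spread. A few individual genes (Pln, Il6, Fos and other list members) are named as list members. The mural cells, gene lists and tests were chosen with earlier results of these data known. The mixed-cell and contractile-half settings were added after seeing the data. Low-depth values are limited by counting: 3 counts set the limit for a gene at 0. Some genes that met the naming rule are not reported here.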

Additional observations from a re-analysis of the deposited data

How the results depend on the processing

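No paired analysis was possible because each group is 1 library. The shares of mural cells (21 of 21 values) and Piezo1 (20 of 20) stayed within their counting error under every alternative run, as did 343 of 360 values of named genes. For the shares and Piezo1 this is a weak check. Piezo1 rests on 2, 4 and 2 UMIs, and the share alternatives keep most of the same cells, so the wide intervals could hardly be left. The share intervals of the 2-week knockout and the control, apart before thinning, overlapped after it. The counts of genes past 2-fold moved most. For the 2-week knockout over the control, weighing every cell the same gave 39 lower, weighing Myh11-positive and Myh11-negative cells equally gave 105 higher, leaving out the mixed cells gave 16 higher and 28 lower, a minimum of 20 UMIs gave 184 higher and 238 lower, and a minimum of 100 gave 29 and 28. For the 3-week knockout, the Myh11 weighing gave 151 higher and 118 lower, a minimum of 20 UMIs gave 197 and 197, and a minimum of 100 gave 26 and 26. The Myh11 weighing rests on 2, 4 and 1 negative cells (2-week knockout, 3-week knockout, control). Thinning every cell to 2000 UMIs gave 20 genes higher and 24 lower in the contractile-high cells, and 39 higher and 13 lower in Myh11-positive cells (141 and 30 unthinned), with fewer genes ranked by construction. Of 439 list medians 6 reversed: the cytokine list of the 2-week knockout (0.18) and the Notch list of the 3-week knockout (-0.49) under the Myh11 weighing, and the fibroblast (-0.78) and fibrillar matrix (-0.74) lists of the 3-week knockout without its mixed cell, which is also the Pdgfra-positive cell. The cause of the other moves was not tested. Depth limits all of this: 71 cells, and no replicate libraries.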
